A study of Mus musculus with 3 samples.

Results

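The cells described here were a class of adventitial fibroblasts marked by Penk, Ptx3, Has1, Ifi205 and Sned1 and are called Penk/Ptx3/Has1 fibroblasts. They were chosen by measured values. A barcode, the tag of 1 droplet, was kept with at least 2000 UMIs (molecules counted once each), at least 300 genes and at most 10% mitochondrial UMIs. It was taken as a fibroblast when Col1a1, Col1a2, Dcn and Lum together held at least 1% of its UMIs and Ptprc, the pan-leukocyte marker, had none. A fibroblast belonged to the class when at least 3 of the 5 marker genes had a UMI and fewer than 4 of Dpp4, Cd55, Sema3c, Dact2 and Limch1, genes of a progenitor-type fibroblast, had one. This gave 2554 cells of 22682 fibroblasts, among 36140 barcodes past the filters and 45241 in the files. By library they were 524 in AngII_VWR, 1071 in AngII and 959 in Vehicle.

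The study profiled peeled adventitia, the outer coat of the aorta, by droplet single-cell RNA sequencing in mice. AngII_VWR mice received angiotensin II, a hormone that raises blood pressure, and ran on a wheel by choice; AngII mice received angiotensin II; Vehicle mice received saline. Tissue from all groups was digested with Liberase and elastase, and red cells were lysed. The labels gave 3 mice per group without saying whether they were pooled, and no strain, age, dose or duration. Each group was 1 library, so no comparison below has a replicate or a statistical test. Intervals in parentheses are exact 95% intervals that cover counting error only, and "higher" and "lower" describe these libraries.

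Fibroblasts of the adventitia make the collagen coat of the vessel and signal to leukocytes, nerves and fat around it. Penk encodes proenkephalin, the precursor from which opioid enkephalin peptides are cut. Ptx3 encodes pentraxin 3, a secreted pattern-recognition protein of innate immunity, and Has1 encodes a synthase that extrudes hyaluronan, a long matrix sugar, through the cell membrane. In inflamed matrix, Tnfaip6 protein moves heavy chains of inter-alpha-inhibitor onto hyaluronan, and pentraxin 3 helps to cross-link the result. Ifi205 belongs to the interferon-inducible Ifi200 family of mouse chromosome 1, and Sned1 encodes an extracellular matrix glycoprotein.

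Depth differed between the libraries. The median cell of the class had 8923 UMIs in AngII_VWR, 17933 in AngII and 16135 in Vehicle, and the class summed to 5602110, 20536483 and 15976280 UMIs. Other fibroblasts, meaning all fibroblasts outside the class, had medians of 5394, 13065 and 11327 UMIs, so the class was deeper than the rest in each library. The median mitochondrial share in the class was 2.02, 2.30 and 1.51%. Counts were written by Cell Ranger 7.1.0 for AngII_VWR and 7.0.1 for AngII and Vehicle, and this version and the group cannot be told apart. The AngII_VWR file shared 68 barcode sequences with AngII and 80 with Vehicle, and AngII shared 44 with Vehicle, with 0 of them in the class in both libraries of a pair. Levels are given as CPM, UMIs of a gene per 1000000 UMIs of the population in that library.

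The class carried the genes of fibroblasts. Pdgfra, the platelet-derived growth factor receptor of fibroblasts, stood at 273, 225 and 253 CPM in AngII_VWR, AngII and Vehicle, and Col3a1, a fibrillar collagen, at 11092, 9724 and 3692 CPM. Position was not recorded, so nearness to fat could not be examined in dissociated cells. Mature adipocyte genes were low, with Lep, the leptin gene, at 0 in every library and Adipoq, the adiponectin gene, at 5.53, 6.28 and 0.25 CPM. The highest of them was Car3, a carbonic anhydrase gene, at 29.1, 42.0 and 16.0 CPM in the cells against 5.52, 17.1 and 3.80 CPM in other fibroblasts, and Cfd, the adipsin gene, stood at 9.28, 14.9 and 5.01 CPM in the cells against 12.7, 7.57 and 7.91 CPM in other fibroblasts. The 12 adipocyte genes summed to 49.3, 72.3 and 24.4 CPM in the class against 24.7, 32.7 and 15.8 CPM in other fibroblasts. Within the class Car3 was uneven. In the small set with a Chl1 UMI, described below, it stood at 81.7 and 206 CPM in AngII_VWR and AngII. In the cells without, it stood at 11.9 and 8.90 CPM, and in AngII this was under the level of other fibroblasts. Of 12 genes of mesothelium, the sheet that lines body cavities and also makes hyaluronan, 6 (Msln, Upk1b, Krt8, Krt7, Bnc1 and Muc16) were at 0 in all 3 libraries, and the 12 summed to 10.0 to 13.6 CPM.

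Genes of other cell types were present at low levels. Macrophage genes summed to 514, 270 and 299 CPM over 10 genes in the class in AngII_VWR, AngII and Vehicle, against 766, 263 and 269 CPM in other fibroblasts. Haemoglobin and Alas2 summed to 255, 573 and 1965 CPM in the class, and smooth muscle and pericyte genes to 189, 187 and 536 CPM. Blood endothelial genes summed to 39.8, 8.86 and 19.7 CPM, and Sox10, a defining Schwann cell gene, was at 0. The part of these transcripts in the differences between libraries was not tested.

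The 5 marker genes differed in how they contributed. Has1 was found in 87.8, 89.1 and 90.6% of the cells in AngII_VWR, AngII and Vehicle, and Sned1 in 86.8, 79.7 and 79.7%. Penk was found in 53.6, 66.0 and 89.7%, Ptx3 in 39.9, 61.6 and 35.1% and Ifi205 in 61.5, 53.7 and 49.9%. Has1 and Sned1 were thus near general, while Penk was most general in Vehicle and Ptx3 in AngII. Has1 was also found in 21.1, 41.6 and 44.0% of other fibroblasts. In fibroblasts with at least 4 of the 5 progenitor genes, called Dpp4-rich, Has1 was found in 58.2, 81.3 and 84.4%. In AngII, 57.9% of Dpp4-rich fibroblasts had an Ifi205 UMI, above the class. Their median depths were 9837, 21320 and 21470 UMIs. As a background, macrophage-like barcodes, whose median depths were 5758, 15606 and 13990.5 UMIs, gave a Penk UMI in 2.12, 0.997 and 3.70% and a Has1 UMI in 6.16, 10.0 and 12.3%.

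Penk stood at 114, 155 and 370.3 CPM in the cells of AngII_VWR, AngII and Vehicle, against 30.9, 43.8 and 86.4 CPM in other fibroblasts. Its intervals of counting error were 106 to 124, 149.7 to 160.5 and 361 to 379.9 CPM, and it was highest in Vehicle. Ptx3 stood at 129, 462 and 222 CPM in the cells of AngII_VWR, AngII and Vehicle, against 10.5, 64.8 and 35.8 CPM in other fibroblasts, and was highest in AngII. Has1 stood at 475, 904 and 1076 CPM in the cells of AngII_VWR, AngII and Vehicle, against 109.6, 291 and 375 CPM in other fibroblasts, with the lowest level in AngII_VWR. Ifi205 stood at 116, 179 and 102 CPM in the cells of AngII_VWR, AngII and Vehicle, against 10.4, 30.3 and 21.6 CPM in other fibroblasts, and Sned1 at 263, 362 and 209.7 CPM in the cells of AngII_VWR, AngII and Vehicle, against 64.1, 71.5 and 62.9 CPM in other fibroblasts; both were highest in AngII. Reads of Ifi205 are uncertain, because the Ifi200 genes are near copies of each other and the counting could split them. All these levels were shaped by the rule, which asks for a UMI of at least 3 of the 5 markers and so favours deep barcodes.

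**Figure D1:**
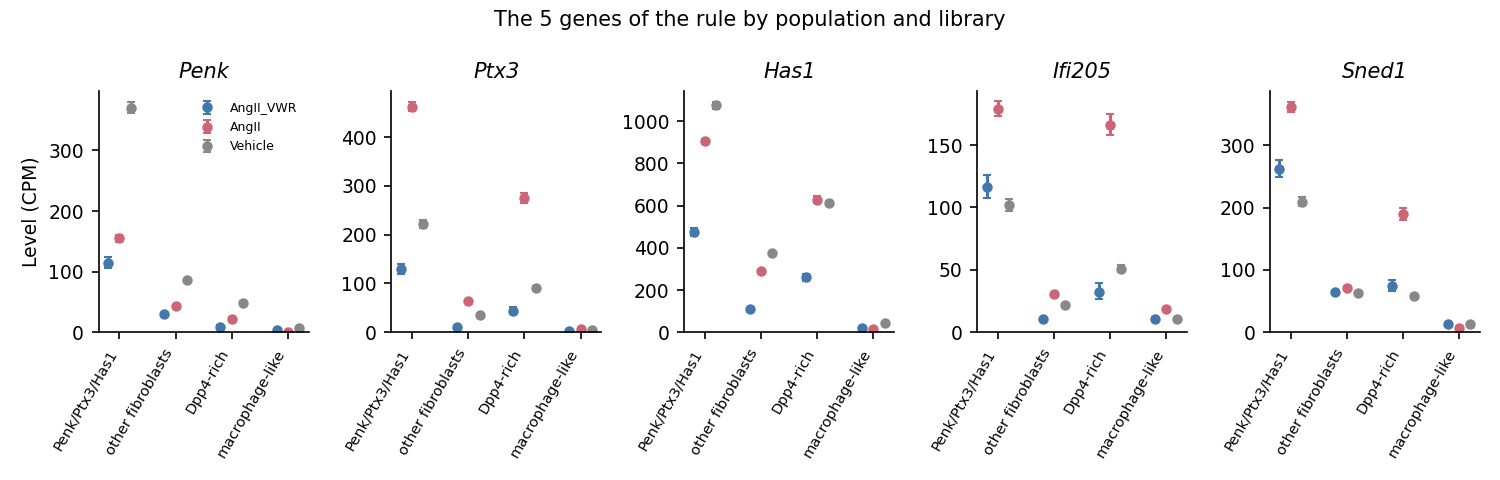
Level of the 5 marker genes in CPM (y axis) in Penk/Ptx3/Has1 fibroblasts, other fibroblasts, Dpp4-rich fibroblasts and macrophage-like barcodes; colours mark the libraries and bars are exact Poisson 95% intervals. In Dpp4-rich fibroblasts of AngII, Ifi205 reaches 166 CPM, near the 179 CPM of the chosen cells, while Penk is at 22.3 CPM.

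Each marker was also compared between fibroblasts with at least 3 and with fewer than 3 of the other 4, Dpp4-rich cells left out. The marker itself thus did not choose the side. The 5 markers were chosen together with results of these data known, so higher levels on the side with 3 are descriptions. The sides are also not the class and the rest. Cells of the class that reached 3 only through the marker itself fall on the side with fewer. For Penk in AngII_VWR the side with 3 held 326 cells. Ptx3 was 5.60, 8.01 and 12.3-fold higher on the side with 3 in AngII_VWR, AngII and Vehicle, and Ifi205 5.77, 7.44 and 6.47-fold. Has1 was 3.88, 3.18 and 3.15-fold higher and Sned1 3.70, 5.15 and 2.29-fold. Penk was 1.37, 1.94 and 2.50-fold higher, the smallest ratio in AngII_VWR and AngII, while Sned1 was the smallest in Vehicle.

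Most cells were just inside the rule: 74.2, 61.5 and 63.4% in AngII_VWR, AngII and Vehicle had exactly 3 of the 5 markers, and 20, 125 and 81 cells had all 5. In cells with exactly 3 markers Has1 stood at 409, 674 and 877 CPM, and in fibroblasts with exactly 2, just outside, at 273, 411 and 465 CPM. Hp, the gene of haptoglobin, which the rule did not use, stood at 98.5, 115 and 33.9 CPM inside and 68.5, 38.3 and 13.2 CPM outside. The most frequent marker set was Has1, Ifi205 and Sned1 in AngII_VWR (109 cells, 20.8%), and Penk, Has1 and Sned1 in AngII (166 cells, 15.5%) and Vehicle (296 cells, 30.9%). The Dpp4 part of the rule left out 53, 203 and 442 fibroblasts that had 3 or more markers, so it removed most in Vehicle. In the cells kept, Dpp4 stood at 18.9, 7.11 and 12.9 CPM, Cd55 at 149.9, 79.2 and 131 CPM, Sema3c at 159, 88.4 and 246 CPM, Dact2 at 3.03, 2.05 and 4.76 CPM and Limch1 at 9.82, 8.96 and 22.8 CPM.

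The class took a smaller share of fibroblasts in AngII_VWR than in the other libraries. It was 5.04% of fibroblasts in AngII_VWR (524 of 10388; Clopper-Pearson 4.63 to 5.48%), 17.95% in AngII (1071 of 5966; 17.0 to 18.9%) and 15.2% in Vehicle (959 of 6328; 14.3 to 16.1%). Shallow barcodes reach 3 markers less easily, so every barcode was also thinned to 2000 UMIs before the rule was applied, and no filtered barcode was shallower. The thinned shares were 0.913% in AngII_VWR (0.742 to 1.11%), 4.54% in AngII (4.04 to 5.09%) and 3.61% in Vehicle (3.17 to 4.09%). Thinning acted on the fibroblast gate, the Ptprc filter and the Dpp4 part of the rule too. The share of Dpp4-rich fibroblasts went from 3.24, 6.72 and 17.5% as counted to 0.596, 1.02 and 4.06% thinned. The thinned class is therefore not the same class at equal depth. AngII_VWR over AngII was a ratio of 0.281 (0.253 to 0.312) as counted and 0.201 (0.158 to 0.254) thinned. AngII over Vehicle was 1.18 (1.08 to 1.29) as counted and 1.26 (1.05 to 1.504) thinned. The order of AngII and Vehicle turned without the exclusion of Dpp4-rich cells, which gave 21.4% in AngII and 22.1% in Vehicle, while a stricter fibroblast gate of 3% of UMIs gave 16.1 and 7.91%. A share counts cells recovered after digestion, and fewer such cells cannot be told apart from less marker RNA per cell.

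**Figure D2:**
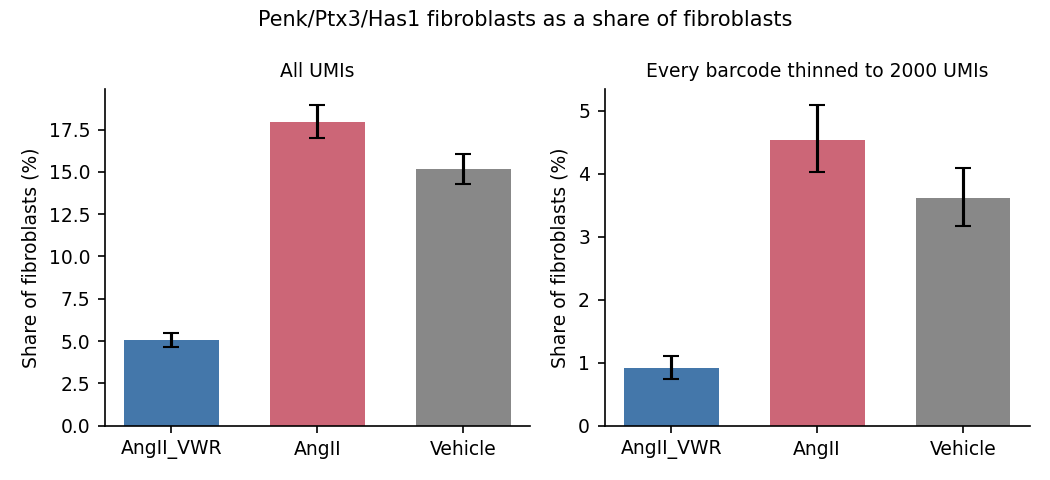
Share of fibroblasts that met the rule in each library (y axis, percent), from all UMIs (left) and after thinning every barcode to 2000 UMIs (right); bars start at 0 and error bars are exact Clopper-Pearson 95% intervals. AngII_VWR has the lowest share in both panels, 5.04 and 0.913%.

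Against other fibroblasts in the same library, the class had higher levels of Hp, C4b, Il6 and Il1r1 and of several Ifi200 genes, and lower levels of Fmod, Col4a4 and Eln. These ratios are descriptions, because the contrast is the one that chose the cells. Of 2961 genes with at least 50 CPM, the marker genes left out, 11 were at least 2-fold higher in all 3 libraries, or 0.371%, and 4 were at least 2-fold lower in all 3, or 0.135%. The 11 were Hp, C4b, Bmper, Ifi204, Ifi211, Tnfaip2, Il1r1, Ccl7, Myc, Il6 and Plac8, and the 4 were Fmod, Col4a4, Sgip1 and Ndufa4l2.

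Among acute-phase and complement genes, Hp, which binds free haemoglobin, stood at 149, 345 and 65.2 CPM in the cells of AngII_VWR, AngII and Vehicle, against 34.1, 37.2 and 7.99 CPM in other fibroblasts. The ratios were 4.36 (4.02 to 4.73), 9.29 (8.87 to 9.73) and 8.15 (7.34 to 9.06), the largest in each library among the 20 leading high genes. C4b, a complement component of the classical pathway whose near copy C4a could share its reads, stood at 398, 693 and 259.6 CPM in the cells against 132, 239.9 and 80.7 CPM in other fibroblasts. C3, on which the complement pathways meet, stood at 1873, 2394 and 2029 CPM in the cells against 831, 860.0 and 1064 CPM in other fibroblasts. Of 13 complement and pentraxin genes measured in all libraries, 4 were at least 1.5-fold higher in all 3, against 1.04% of all 9926 genes measured this way, and 0 were 1.5-fold lower, against 0.786%. Ptx3, which chose the cells, is 1 of these 4, and Cd55, which the rule also used, is among the 13.

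Signalling genes of inflammation were higher in the class. Il6, a cytokine that drives the acute-phase response, stood at 193, 1049 and 435 CPM in the cells of AngII_VWR, AngII and Vehicle, against 70.3, 484 and 101 CPM in other fibroblasts. Il1r1, the receptor for interleukin 1, stood at 335, 355 and 197 CPM in the cells against 144, 127 and 76.1 CPM in other fibroblasts, and Tnfaip2, a gene induced by tumour necrosis factor, at 167, 557 and 247 CPM in the cells against 44.8, 239 and 87.9 CPM in other fibroblasts. These genes were named for their smallest ratio over the libraries, so a higher level in all 3 follows from that choice. Ccl7, which attracts monocytes, stood at 424, 990.1 and 980.3 CPM in the cells against 135, 436 and 406 CPM in other fibroblasts, but was higher still in macrophage-like barcodes, at 1294, 2294 and 3063 CPM. Jak2, a kinase downstream of cytokine receptors, stood at 73.4, 124 and 65.8 CPM in the cells against 35.4, 59.8 and 36.4 CPM in other fibroblasts, and Sbno2, a transcriptional co-regulator, at 74.3, 215 and 96.0 CPM in the cells against 36.4, 109 and 37.8 CPM in other fibroblasts. Of 16 cytokine and chemokine genes measured in all libraries 7 were 1.5-fold higher in all 3, and of 16 NF-kB target genes 5. Of all 9926 genes measured this way 1.04% were.

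The Ifi200 genes were higher as a family, within the limit on near copies given above. Ifi204 stood at 136, 192 and 176 CPM in the cells against 48.1, 62.4 and 70.8 CPM in other fibroblasts, Ifi211 at 61.0, 135 and 104 CPM in the cells against 24.9, 54.7 and 39.9 CPM in other fibroblasts and Ifi207 at 162, 205 and 227 CPM in the cells against 83.4, 72.2 and 89.7 CPM in other fibroblasts. Of 6 measured family members 4 were at least 1.5-fold higher in all 3 libraries, against 1.04% of all 9926 measured genes. Ifi205 of the rule was among the 4, and Ifi203 and Mndal were higher by less in AngII_VWR. Macrophage-like barcodes held more Ifi207 than the class, at 599, 576 and 788 CPM. Type I interferon targets did not share one direction: of 11 measured in all libraries 1 was higher in all 3, 1 was lower in all 3, and 0 passed 1.5-fold either way.

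Matrix, growth factor and metal genes made up the rest. Bmper, a secreted modulator of bone morphogenetic proteins, stood at 306, 294 and 124 CPM in the cells against 106, 97.4 and 30.4 CPM in other fibroblasts. Sfrp1, a secreted Wnt inhibitor, stood at 870.4, 879 and 496 CPM in the cells against 458, 451 and 136 CPM in other fibroblasts, and Postn, the gene of periostin, a protein of remodelling matrix, at 546, 773 and 89.9 CPM in the cells against 238, 424 and 44.3 CPM in other fibroblasts. The gap in Sfrp1 was widest in Vehicle. Mt2, a metallothionein, stood at 1233, 901 and 627 CPM in the cells against 496, 498 and 346 CPM in other fibroblasts, and Steap4, a metalloreductase of the cell membrane, at 240.3, 272 and 195 CPM in the cells against 130.1, 112 and 69.8 CPM in other fibroblasts. Leaving out cells with a Chl1 UMI, an alternative chosen after seeing the data, lowered the log2 ratios nearest to 0 over the libraries. That of Sfrp1 was 0.25 in place of 0.92, and that of Steap4 0.48 in place of 0.88. The transcription factor Myc stood at 91.4, 231 and 178 CPM in the cells against 40.6, 96.3 and 53.5 CPM in other fibroblasts, and Plac8 at 293, 140.5 and 123 CPM in the cells against 91.3, 49.2 and 57.8 CPM in other fibroblasts.

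Lower in the class was Fmod, the gene of fibromodulin, a small proteoglycan that shapes collagen fibrils, at 64.8, 199 and 50.2 CPM in the cells against 267, 486 and 196 CPM in other fibroblasts. Of 9 small proteoglycan genes measured in all libraries 8 were lower in all 3 and 2 of them by at least 1.5-fold, where 3869 of all 9926 measured genes were lower in all 3 at any size. Eln, the gene of elastin, stood at 478, 710.2 and 423 CPM in the cells against 989.6, 1223 and 727 CPM in other fibroblasts. Ntn4 and Sema3d, guidance cues for axons and vessels, stood at 77.1, 74.2 and 135 CPM in the cells against 132, 139.5 and 255 CPM in other fibroblasts and at 34.6, 35.1 and 45.8 CPM in the cells against 78.2, 70.9 and 84.4 CPM in other fibroblasts, and Ntrk3, a receptor for neurotrophin 3, at 34.6, 56.6 and 74.7 CPM in the cells against 75.2, 102 and 130.4 CPM in other fibroblasts. Igfbp5, which binds insulin-like growth factors, stood at 1428, 505 and 1561 CPM in the cells against 2278, 1237 and 3319 CPM in other fibroblasts. Col4a4, a basement membrane collagen gene, stood at 15.7, 18.8 and 44.4 CPM in the cells against 62.8, 56.5 and 91.4 CPM in other fibroblasts. The other low genes, Sgip1, Ndufa4l2, Fry, Cd200 and Pdgfrl, were between 1.65-fold and 2.44-fold lower across the libraries. Ntn4 and Igfbp5 were not lower in all 3 libraries with a fibroblast gate of 3% of UMIs, where their highest log2 ratios over the libraries were 0.05 and 0.16. With Dpp4-rich cells kept in the class the highest ratio of Igfbp5 was 0.19, and Ntn4 was level in 1 library.

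**Figure D3:**
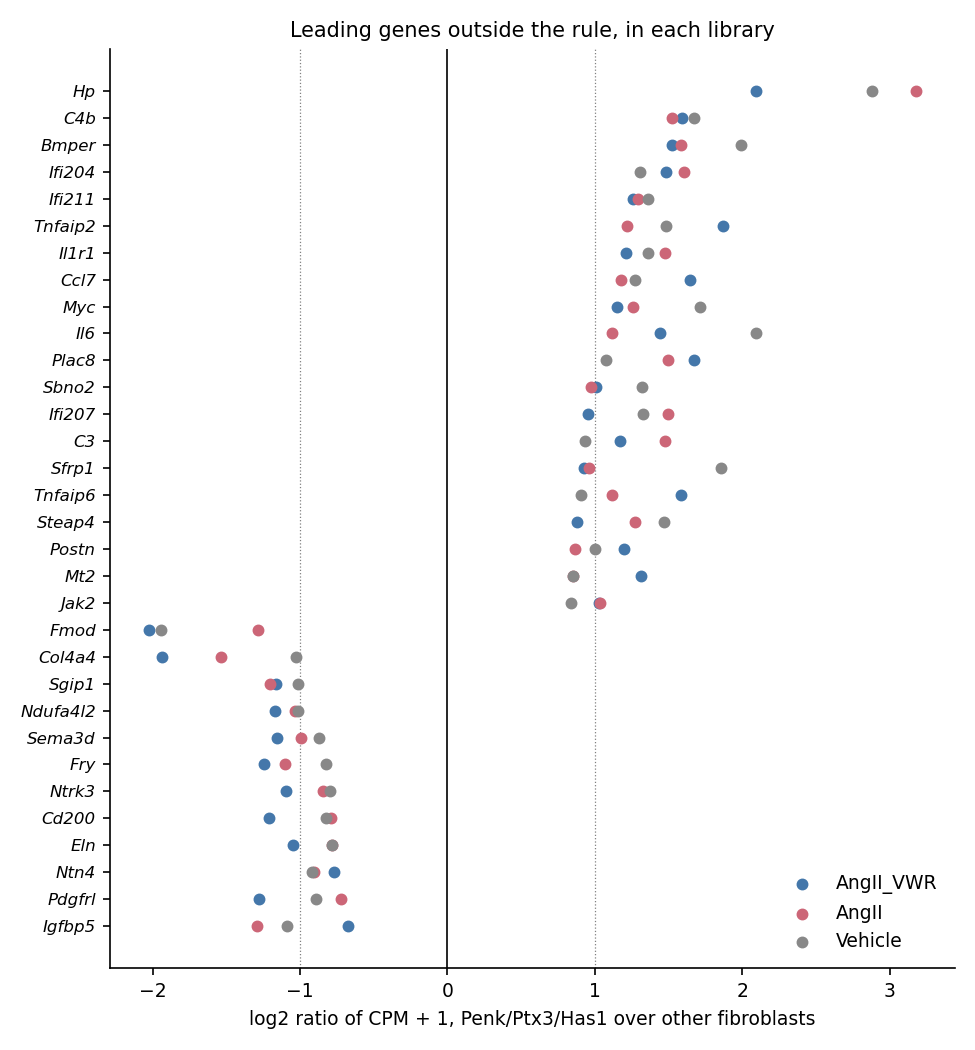
Leading genes outside the rule, as the log2 ratio of CPM + 1 of Penk/Ptx3/Has1 fibroblasts over other fibroblasts (x axis) for each gene (y axis); each point is 1 library and dotted lines mark 2-fold. Hp stands furthest to the right and Fmod and Col4a4 furthest to the left.

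Dpp4-rich fibroblasts, which carry at least 4 of the 5 progenitor genes, numbered 337, 401 and 1105 in AngII_VWR, AngII and Vehicle. Of the 20 leading high genes, 18 were higher in the class than in these cells in all 3 libraries. The exceptions were Ifi204 and Postn. The size of the gap varied, and for some genes it was small. Tnfaip6 stood at 1190.1, 4151 and 2679.5 CPM in the class against 1003, 3467 and 2350 CPM in Dpp4-rich fibroblasts. Plac8 in AngII stood at 140.5 CPM against 128 CPM. Wide gaps were those of Il6 and Sfrp1. The 20 were chosen against other fibroblasts, a pool that includes the Dpp4-rich cells, so this count is not separate from that choice. Il6 stood at 193, 1049 and 435 CPM in the class in AngII_VWR, AngII and Vehicle, against 29.3, 206 and 67.8 CPM in Dpp4-rich fibroblasts. Sfrp1 stood at 870.4, 879 and 496 against 66.7, 87.0 and 56.8 CPM. All other fibroblasts, at 458, 451 and 136 CPM, were also above Dpp4-rich fibroblasts for Sfrp1. Other progenitor genes did not set the class apart from all other fibroblasts: of 12, 4 were higher in all 3 libraries, 2 lower in all 3, and 0 by 1.5-fold.

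Promoters of genes that the class held at higher levels are shown for Ptx3, a gene of the rule, and for Il6 and Tnfaip6, of the leading genes, to let motifs be read in their place. They are the 250 bases before the RefSeq start of each gene in build GRCm38.p6, the same assembly as mm10, all on the plus strand. Capitals mark matches, on either strand, to the motif of C/EBP factors (TTNNGNAA), to that of AP-1 (TGANTCA) and to the NF-kB consensus.
Ptx3, chr3:66219637-66219886: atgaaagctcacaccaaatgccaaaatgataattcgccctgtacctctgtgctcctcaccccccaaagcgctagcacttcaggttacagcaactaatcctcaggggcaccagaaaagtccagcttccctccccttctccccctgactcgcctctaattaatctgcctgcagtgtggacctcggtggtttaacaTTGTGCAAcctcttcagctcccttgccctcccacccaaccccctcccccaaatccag
Il6, chr5:30012864-30013113: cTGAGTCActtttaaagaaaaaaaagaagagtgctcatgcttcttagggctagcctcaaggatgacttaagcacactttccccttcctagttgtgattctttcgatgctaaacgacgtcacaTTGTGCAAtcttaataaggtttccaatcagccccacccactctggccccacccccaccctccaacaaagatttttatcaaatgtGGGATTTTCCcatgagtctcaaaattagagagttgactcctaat
Tnfaip6, chr2:52037863-52038112: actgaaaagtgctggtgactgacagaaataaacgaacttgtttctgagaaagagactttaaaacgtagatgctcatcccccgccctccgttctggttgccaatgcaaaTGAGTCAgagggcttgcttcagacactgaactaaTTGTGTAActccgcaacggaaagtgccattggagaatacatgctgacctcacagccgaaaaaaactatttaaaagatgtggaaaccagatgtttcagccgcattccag
The C/EBP matches began 57, 128 and 108 bases before the start in Ptx3, Il6 and Tnfaip6. Il6 also held an AP-1 match and, 44 bases before its start, an NF-kB match, and Tnfaip6 held an AP-1 match 142 bases before its start. The genes lie at chr3:66219887-66225806, chr5:30013114-30019975 and chr2:52038113-52056681.

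Of the 5 marker and 20 leading genes, 18 had an entry, with 23 windows between them. A C/EBP match was in 17 windows (73.9%), against 36.8% of all 32851 RefSeq promoter windows. An AP-1 match was in 3 windows (13.0%), against 6.75% of all. NF-kB was first searched with a narrower form of its consensus, which matched 1 window, that of Il6, and 0.356% of all. After that count had been seen the search was widened to the usual consensus, which matched 4 windows (17.4%) and 3.90% of all. These are descriptions of letters in the windows, not of binding.

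In the enkephalin pathway the precursor and general peptide enzymes were present, while neuroendocrine convertases and opioid receptors were at or near 0. Carboxypeptidase E (Cpe), which trims peptide ends, stood at 102, 90.0 and 113 CPM in AngII_VWR, AngII and Vehicle, against 257, 187 and 156 CPM in other fibroblasts. The convertases Pcsk1 and Pcsk2, which cut proenkephalin in neuroendocrine cells, stood at 0.357, 0 and 0 and at 0.357, 0.0487 and 0.313 CPM. The related precursor Pdyn and the opioid receptors Oprd1 and Oprk1 had 0 UMIs, which allows up to 0.536, 0.146 and 0.188 CPM. Oprm1, the mu receptor, had 1 UMI in AngII, 1 in Vehicle and 0 in AngII_VWR. Of the enzymes that break enkephalins down, Anpep stood at 96.9, 127 and 113 CPM and Mme at 9.82, 15.2 and 9.83 CPM.

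In the hyaluronan pathway Has1 was the main synthase gene. Has2 stood at 76.8, 60.8 and 70.7 CPM in the cells against 29.7, 45.0 and 97.6 CPM in other fibroblasts, and Has3 at or under 0.438 CPM in the class. Ugdh, which makes the glucuronic acid precursor of hyaluronan, stood at 1685, 1016 and 1883 CPM in the cells against 878, 895 and 2109.7 CPM in other fibroblasts. Ugdh was thus higher in the class in AngII_VWR and AngII and lower in Vehicle. Tnfaip6 stood at 1190.1, 4151 and 2679.5 CPM in the cells against 397, 1911 and 1432 CPM in other fibroblasts. In Dpp4-rich fibroblasts it was near the class, at 1003, 3467 and 2350 CPM. The receptor Cd44 stood at 372, 297 and 227 CPM in the cells against 221, 200.2 and 268 CPM in other fibroblasts, and the hyaluronan-binding proteoglycan Vcan at 346, 184 and 195 CPM in the cells against 178, 142 and 281 CPM in other fibroblasts. Both were higher in the class in AngII_VWR and AngII and lower in Vehicle. Itih5, a heavy chain of the inter-alpha-inhibitor family, stood at 52.5, 119.9 and 71.3 CPM in the cells against 41.6, 68.9 and 131 CPM in other fibroblasts. Of 12 pathway genes measured in all libraries, 2 were 1.5-fold higher in all 3, Has1 of the rule and Tnfaip6, against 1.04% of all 9926 measured genes.

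Of 14 preadipocyte genes measured in all libraries, 7 were higher in the class in all 3 and 1 was lower in all 3, where 1254 of all 9926 measured genes were higher and 3869 lower in all 3. The median log2 ratios of the 14 were 0.30, 0.36 and 0.48 in AngII_VWR, AngII and Vehicle. Of all 9926 genes 1.04% were at least 1.5-fold higher in all 3 libraries. The following counts are for the 14 preadipocyte genes. By at least 1.5-fold 3 were higher in all 3 and 0 lower: Cxcl14, a chemokine gene, at 239.6, 117 and 19.5 CPM in the cells against 25.6, 14.6 and 2.16 CPM in other fibroblasts; Ggt5, a gamma-glutamyltransferase gene, at 24.6, 47.2 and 23.3 CPM in the cells against 14.8, 23.2 and 10.8 CPM in other fibroblasts; and Pparg, the master regulator of fat cell formation, at 6.07, 11.8 and 6.07 CPM in the cells against 2.85, 5.08 and 2.40 CPM in other fibroblasts. Pparg and Ggt5 fall outside the naming rule and are given because the count was small. Lpl, the gene of lipoprotein lipase, stood at 196, 337 and 315 CPM in the cells against 157, 164 and 196 CPM in other fibroblasts. Of 6 measured genes of fibroblasts that restrain fat cell formation, 0 were higher in all 3 libraries and 4 were lower, 0 of them by 1.5-fold in all 3. Among them F3, the tissue factor gene, stood at 137, 163 and 392 CPM in the cells against 341, 311 and 574 CPM in other fibroblasts.

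Cells of the class differed among themselves with the marker they carried. The genes named here were picked, after their values were seen, from those with the largest gaps in the library where the gap was smallest. Some genes with larger gaps are not named. Carrying 1 marker also shifts, by the rule, how often the others are seen. Cells with a Penk UMI were higher for Myoc, the myocilin gene, at 98.8, 233 and 210.3 CPM in cells with the UMI and 42.4, 53.7 and 18.9 CPM in cells without, in AngII_VWR, AngII and Vehicle. They were also higher for Ntrk2, a neurotrophin receptor gene, at 145, 188 and 184 CPM in cells with the UMI and 45.4, 71.3 and 91.8 CPM in cells without, and for Lpl, at 313, 422 and 335 CPM in cells with the UMI and 98.6, 208 and 171 CPM in cells without. They were lower for Sfrp4, a secreted Wnt inhibitor, at 2166, 989 and 1233 CPM in cells with the UMI and 5586, 2503 and 2716 CPM in cells without, and for Wnt2, at 50.8, 13.4 and 40.2 CPM in cells with the UMI and 117, 67.8 and 103 CPM in cells without. Penk carriers were the shallower ones, with medians of 7766, 17039 and 15649 UMIs against 11276, 20385 and 19887 in the rest.

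Cells with a Ptx3 UMI held more inflammatory transcripts. Hp stood at 212, 488 and 107 CPM in cells with the UMI and 102, 100.03 and 39.9 CPM in cells without, and Il6 at 258, 1239.6 and 671 CPM in cells with the UMI and 146, 722 and 295 CPM in cells without. Ccl2, a monocyte attractant, stood at 398, 734 and 1344 CPM in cells with the UMI and 249.7, 399.6 and 669.7 CPM in cells without. Cells with a Has1 UMI were higher for the precursor enzyme gene Ugdh, at 1806, 1078 and 1965 CPM in cells with the UMI and 689.6, 497 and 998 CPM in cells without, and for Uap1, which makes the other sugar precursor, at 659.9, 424 and 612 CPM in cells with the UMI and 373, 221 and 268 CPM in cells without. Has1 carriers were higher for Ccl2 too, at 329, 655 and 967 CPM in cells with the UMI and 172, 234 and 428 CPM in cells without. They were lower for Cp, the ceruloplasmin gene, at 143, 239 and 194 CPM in cells with the UMI and 288, 442 and 656 CPM in cells without. Cells with an Ifi205 UMI were higher for Postn, at 659.6, 1059 and 121 CPM in cells with the UMI and 325, 391 and 56.1 CPM in cells without, and lower for Fmod, at 26.2, 96.3 and 18.7 CPM in cells with the UMI and 139.7, 337 and 84.0 CPM in cells without. Cells with a Sned1 UMI were higher for Il1r1, at 352, 399.5 and 220.1 CPM in cells with the UMI and 180.4, 159 and 92.4 CPM in cells without. Sned1 carriers were higher for Hp too, at 163, 387 and 74.3 CPM against 26.3, 163 and 23.6 CPM in cells without. For Ccl2 they were lower, at 290, 539 and 884 CPM against 504, 929 and 1092 CPM in cells without.

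A small set within the class carried Chl1, the gene of a neural adhesion molecule: 73 cells in AngII_VWR (13.9%), 136 in AngII (12.7%) and 4 in Vehicle (0.417%). These cells held most of the Saa3, an acute-phase gene, at 1963 and 792 CPM in cells with the UMI and 11.9 and 5.91 CPM in cells without in AngII_VWR and AngII. Cxcl14 stood at 785 and 380.3 CPM in cells with the UMI and 60.7 and 63.9 CPM in cells without, Lbp, the gene of a lipopolysaccharide-binding protein, at 1638 and 823 CPM in cells with the UMI and 254 and 250.5 CPM in cells without, and Serpina3n, a protease inhibitor gene with close relatives that could share its reads, at 1522 and 536 CPM in cells with the UMI and 200.1 and 153 CPM in cells without. They were lower for Gpc3, a glypican gene, at 68.7 and 197 CPM in cells with the UMI and 644 and 639.5 CPM in cells without, and for Igfbp5, at 287 and 190.0 CPM in cells with the UMI and 1803 and 568 CPM in cells without. Their medians were 16222 and 24197.5 UMIs, against 8317 and 17516 in the rest of the class.

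Within the class, AngII was set against Vehicle. AngII cells had more RNA of activated, matrix-depositing fibroblasts and less of the unfolded protein response and of progenitor fibroblasts. Of 1678 genes with at least 100 CPM and 50 UMIs in the higher library, 89 were at least 2-fold higher in AngII, or 5.3%, and 35 at least 2-fold lower, or 2.09%. Other fibroblasts held 69 of the 89 and 26 of the 35 past 2-fold in the same direction. The median log2 ratio of all these genes was -0.08. For the gene lists, 10372 genes were measured, 4522 higher in AngII and 5850 lower at any size.

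Kcnma1, the pore subunit of a large-conductance potassium channel, stood at 241 CPM in AngII cells against 6.63 CPM in Vehicle cells in the class, 36.4-fold higher (30.0 to 44.5). Cthrc1, a secreted collagen triple helix repeat protein, stood at 172 CPM in AngII cells against 16.5 CPM in Vehicle cells, and Col8a1, a short-chain collagen, at 458 CPM in AngII cells against 49.8 CPM in Vehicle cells. Postn stood at 773 CPM in AngII cells against 89.9 CPM in Vehicle cells, 8.60-fold higher (8.15 to 9.08). These matrix genes were higher in other fibroblasts as well, where Postn stood at 424 CPM in AngII against 44.3 CPM in Vehicle. The transcription factor gene Runx1 stood at 334 CPM in AngII cells against 41.6 CPM in Vehicle cells, the mechanosensitive channel gene Piezo2 at 170.5 CPM in AngII cells against 26.1 CPM in Vehicle cells, and the small GTPase genes Rnd1 at 179 CPM in AngII cells against 23.4 CPM in Vehicle cells and Rrad at 132 CPM in AngII cells against 17.5 CPM in Vehicle cells. Gbp5, an interferon-induced guanylate-binding protein gene, stood at 132 CPM in AngII cells against 18.3 CPM in Vehicle cells. Saa3 had the largest ratio, at 138 CPM in AngII cells against 0.25 CPM in Vehicle cells, from 2836 and 4 UMIs, 552-fold higher (215 to 2026); without Chl1 carriers its log2 ratio was 2.47 in place of 6.80.

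Of 20 genes of angiotensin-activated fibroblasts, a list drawn up with earlier results of these data known, 18 were higher in the class in AngII, 16 of them by 1.5-fold, against 8.37% of all measured genes, with a median log2 ratio of 2.32. Of 19 fibrillar collagen and cross-linking genes 17 were higher, 10 by 1.5-fold, with a median of 0.59. Col1a1 stood at 9341 CPM in AngII cells against 3253 CPM in Vehicle cells and Col3a1 at 9724 CPM in AngII cells against 3692 CPM in Vehicle cells, both fibrillar collagens. Col1a1 was also among the genes by which the rule called a fibroblast. Plod2, a collagen lysyl hydroxylase gene, stood at 213 CPM in AngII cells against 76.5 CPM in Vehicle cells, and Lox, the lysyl oxidase gene, at 345 CPM in AngII cells against 137 CPM in Vehicle cells. Acta2 and Tagln, genes of smooth muscle and myofibroblasts, were the 2 lower members of the first list; smooth muscle genes summed to 187 CPM in AngII against 536 CPM in Vehicle, and their part in this was not tested.

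Lower in AngII were Kitl, the gene of Kit ligand, at 32.8 CPM in AngII cells against 147 CPM in Vehicle cells, 4.47-fold lower (4.10 to 4.88), and Smpd3, a sphingomyelinase gene, at 26.1 CPM in AngII cells against 103 CPM in Vehicle cells. Inmt, a methyltransferase gene, stood at 101 CPM in AngII cells against 345 CPM in Vehicle cells in the class, and at 137 CPM in AngII against 234 CPM in Vehicle among other fibroblasts. Tnfrsf12a, the receptor gene for the cytokine TWEAK, stood at 37.0 CPM in AngII cells against 123 CPM in Vehicle cells, and Dpep1, a dipeptidase gene, at 336 CPM in AngII cells against 835 CPM in Vehicle cells. Igfbp5 stood at 505 CPM in AngII cells against 1561 CPM in Vehicle cells, Plcxd3 at 84.9 CPM in AngII cells against 206 CPM in Vehicle cells and F3 at 163 CPM in AngII cells against 392 CPM in Vehicle cells. Of 12 progenitor genes outside the rule 11 were lower, 9 by 1.5-fold, against 4.77% of all measured genes. Among them Pi16 stood at 1387 CPM in AngII cells against 3125 CPM in Vehicle cells and Ly6c1, which has a near copy, at 457 CPM in AngII cells against 942 CPM in Vehicle cells. The rule genes Sema3c (88.4 CPM in AngII cells against 246 CPM in Vehicle cells) and Cd55 (79.2 CPM in AngII cells against 131 CPM in Vehicle cells) were lower too, within a class from which high carriers had been taken out.

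The marker genes did not share one direction between AngII and Vehicle. Ptx3 stood at 462 CPM in AngII cells against 222 CPM in Vehicle cells, 2.08-fold higher (2.01 to 2.17), and Penk at 155 CPM in AngII cells against 370.3 CPM in Vehicle cells, 2.39-fold lower (2.29 to 2.49). Ifi205 and Sned1 were 1.76-fold and 1.72-fold higher, and Has1 was 1.19-fold lower. Hp was 5.30-fold higher (4.97 to 5.66) and C4b 2.67-fold higher (2.58 to 2.76). Of 13 complement and pentraxin genes, Ptx3 and Cd55 of the rule among them, 10 were higher, 4 by 1.5-fold, and 3 lower, 1 by 1.5-fold. Of all measured genes 8.37% were 1.5-fold higher and 4.77% 1.5-fold lower. In the hyaluronan pathway Tnfaip6 was 1.55-fold higher and Ugdh 1.85-fold lower. Of 12 measured genes of that pathway 6 were higher and 6 lower.

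**Figure D4:**
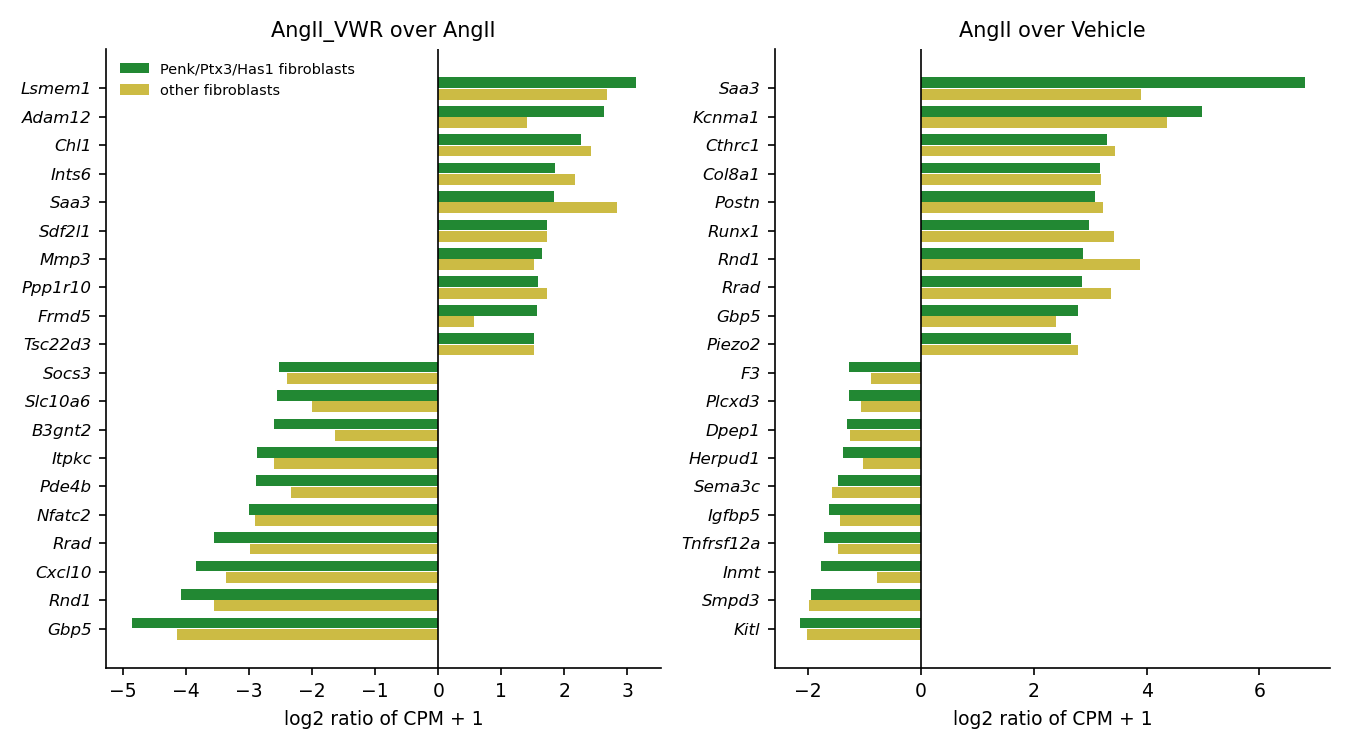
The 10 highest and 10 lowest named genes of each comparison within Penk/Ptx3/Has1 fibroblasts, as the log2 ratio of CPM + 1 (x axis) for AngII_VWR over AngII (left) and AngII over Vehicle (right), with the same ratio in other fibroblasts below each bar. Every named gene has the same direction in both populations, and Saa3 in AngII over Vehicle is the longest bar at 6.80.

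Second, AngII_VWR was set against AngII within the class. Inflammatory genes and several signalling genes were lower in AngII_VWR, and genes of the unfolded protein response were higher. This comparison shares the AngII library with the one before. Of 1759 genes, 38 were at least 2-fold higher in AngII_VWR, or 2.16%, and 75 at least 2-fold lower, or 4.26%, and other fibroblasts held 16 of the 38 and 40 of the 75 past 2-fold in the same direction. The median log2 ratio of these genes was 0.09. For the gene lists, 10508 genes were measured, 6338 higher in AngII_VWR and 4170 lower at any size. The class rested on 524 cells with a median of 8923 UMIs in AngII_VWR and 1071 cells with a median of 17933 UMIs in AngII, and the part of depth was not tested.

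Gbp5 stood at 3.57 CPM in AngII_VWR cells against 132 CPM in AngII cells, 36.9-fold lower (23.9 to 60.6), and Cxcl10, a chemokine gene induced by interferons, at 8.93 CPM in AngII_VWR cells against 141 CPM in AngII cells, 15.8-fold lower (11.96 to 21.4). Rnd1 stood at 9.64 CPM in AngII_VWR cells against 179 CPM in AngII cells and Rrad at 10.4 CPM in AngII_VWR cells against 132 CPM in AngII cells. Both GTPase genes were among those higher in AngII than in Vehicle. Nfatc2, a calcium-regulated transcription factor gene, stood at 15.2 CPM in AngII_VWR cells against 129 CPM in AngII cells, Pde4b, a cyclic AMP phosphodiesterase gene, at 35.7 CPM in AngII_VWR cells against 271 CPM in AngII cells, and Itpkc, an inositol trisphosphate kinase gene, at 14.1 CPM in AngII_VWR cells against 110.0 CPM in AngII cells. Socs3, a feedback inhibitor of cytokine signalling, stood at 175 CPM in AngII_VWR cells against 1013 CPM in AngII cells, and at 922 CPM in Vehicle cells. B3gnt2, a glycosyltransferase gene, stood at 26.4 CPM in AngII_VWR cells against 165 CPM in AngII cells, and Slc10a6, a transporter gene, at 33.2 CPM in AngII_VWR cells against 199.6 CPM in AngII cells. Il6 stood at 193 CPM in AngII_VWR cells against 1049 CPM in AngII cells, 5.43-fold lower (5.11 to 5.78).

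Higher in AngII_VWR were Lsmem1, at 198 CPM in AngII_VWR cells against 21.7 CPM in AngII cells, 9.14-fold higher (8.18 to 10.2), and Adam12, a metalloprotease gene, at 101 CPM in AngII_VWR cells against 15.5 CPM in AngII cells. Mmp3, the stromelysin 1 gene, stood at 1514 CPM in AngII_VWR cells against 483 CPM in AngII cells, and Tsc22d3, a glucocorticoid-induced gene, at 226 CPM in AngII_VWR cells against 78.3 CPM in AngII cells. Mmp3 and Tsc22d3 were higher in other fibroblasts by a like ratio, 2.87-fold and 2.89-fold. Ints6 and Ppp1r10, genes of nuclear RNA and phosphatase regulation, stood at 157 CPM in AngII_VWR cells against 42.6 CPM in AngII cells and at 132 CPM in AngII_VWR cells against 43.6 CPM in AngII cells. Chl1 stood at 433 CPM in AngII_VWR cells against 89.7 CPM in AngII cells, Saa3 at 494 CPM in AngII_VWR cells against 138 CPM in AngII cells and Frmd5 at 146 CPM in AngII_VWR cells against 48.8 CPM in AngII cells. Without Chl1 carriers the log2 ratio of Frmd5 was 0.32 in place of 1.56, that of Adam12 1.30 in place of 2.63, and that of Saa3 0.89 in place of 1.83.

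The marker genes were all lower in the class in AngII_VWR than in AngII, as in other fibroblasts. Ptx3 stood at 129 CPM in AngII_VWR cells against 462 CPM in AngII cells, 3.57-fold lower (3.31 to 3.86), and in other fibroblasts at 10.5 CPM in AngII_VWR against 64.8 CPM in AngII. Has1 stood at 475 CPM in AngII_VWR cells against 904 CPM in AngII cells, Tnfaip6 at 1190.1 CPM in AngII_VWR cells against 4151 CPM in AngII cells and Itih5 at 52.5 CPM in AngII_VWR cells against 119.9 CPM in AngII cells. Ugdh and Vcan ran the other way, at 1685 CPM in AngII_VWR cells against 1016 CPM in AngII cells and at 346 CPM in AngII_VWR cells against 184 CPM in AngII cells. Hp stood at 149 CPM in AngII_VWR cells against 345 CPM in AngII cells and C4b at 398 CPM in AngII_VWR cells against 693 CPM in AngII cells. Of 13 complement and pentraxin genes 10, Ptx3 of the rule among them, were lower, 5 by 1.5-fold, against 7.89% of all measured genes.

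All 16 NF-kB target genes were higher in AngII than in Vehicle in the class, 10 of them by 1.5-fold, against 8.37% of all measured genes. Their median log2 ratio was 0.62, and the direction of all 16 held in every setting tried. Vcam1, an adhesion molecule gene, stood at 316 CPM in AngII cells against 90.4 CPM in Vehicle cells, Tnfaip3, a feedback inhibitor, at 214 CPM in AngII cells against 87.0 CPM in Vehicle cells, and Birc3, a survival gene, at 250.4 CPM in AngII cells against 112 CPM in Vehicle cells. In AngII_VWR all 16 were lower than in AngII, 12 by 1.5-fold, against 7.89% of all measured genes, with a median of -0.92, and 14 to 16 were lower across settings. Birc3 stood at 44.1 CPM in AngII_VWR cells against 250.4 CPM in AngII cells, Irf1, a transcription factor of interferon responses, at 125 CPM in AngII_VWR cells against 451 CPM in AngII cells, and Tnfaip2 at 167 CPM in AngII_VWR cells against 557 CPM in AngII cells. Other fibroblasts showed the same directions, with 16 of 16 higher in AngII than in Vehicle and 16 of 16 lower in AngII_VWR than in AngII.

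Type I interferon targets were low in level. In AngII_VWR 15 of 15 were lower than in AngII in the class, 12 by 1.5-fold, against 7.89% of all measured genes. Their median log2 ratio was -1.11, and 14 or 15 were lower across settings. Isg15, a ubiquitin-like interferon target, stood at 21.2 CPM in AngII_VWR cells against 87.0 CPM in AngII cells, and Ifit3 and Ifit1, antiviral genes of which Ifit3 has a near copy, at 7.85 CPM in AngII_VWR cells against 56.6 CPM in AngII cells and at 8.93 CPM in AngII_VWR cells against 52.9 CPM in AngII cells. In AngII over Vehicle 14 of 15 were higher, 4 by 1.5-fold, against 8.37% of all measured genes, with a median of 0.42. With Dpp4-rich cells kept in the class, however, 6 were higher and 9 lower. In other fibroblasts 13 of 14 were lower in AngII than in Vehicle, and the difference between populations was not tested. All 6 measured Ifi200 genes were lower in AngII_VWR than in AngII.

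**Figure D5:**
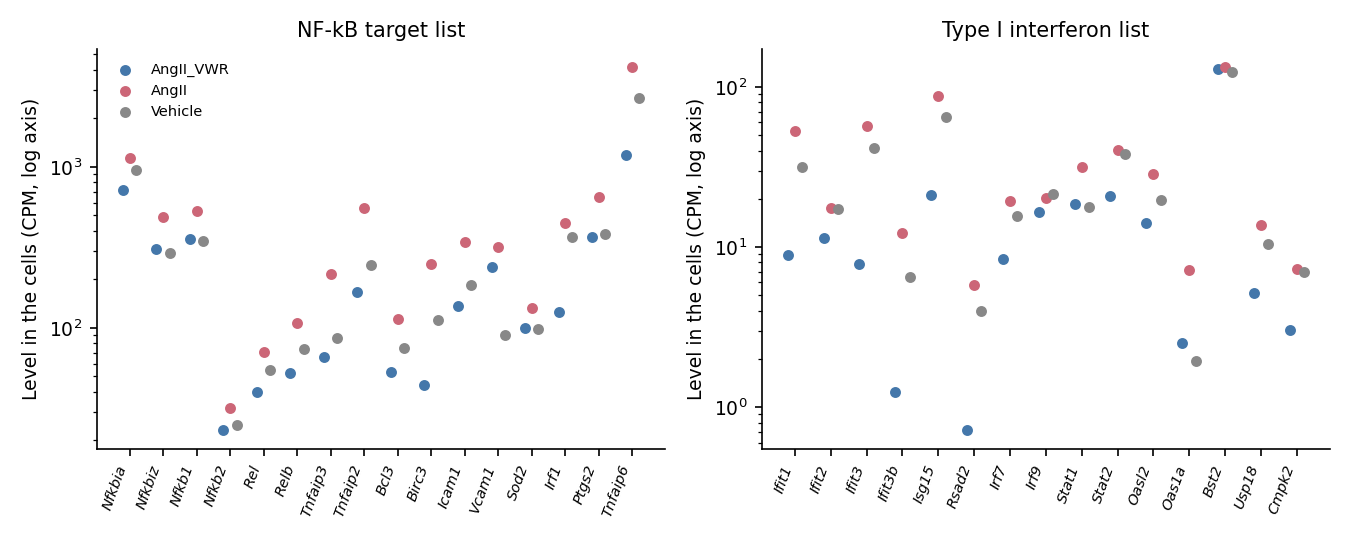
Level in Penk/Ptx3/Has1 fibroblasts (CPM, log y axis) of the members of the NF-kB target list (left) and the type I interferon list (right), 1 point per library. In the left panel the AngII point is the highest for each of the 16 genes, and in the right panel the AngII_VWR point lies under the AngII point for each of the 15.

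The unfolded protein response, by which a cell copes with protein that has not folded in the endoplasmic reticulum, ran the other way. Of 18, 17 were lower in AngII than in Vehicle, 9 by 1.5-fold, against 4.77% of all measured genes. In AngII_VWR 17 were higher than in AngII, 9 by 1.5-fold, against 10.6% of all measured genes, with 16 to 18 higher across settings. Herpud1, which serves protein degradation at that membrane, stood at 151 CPM in AngII cells against 391 CPM in Vehicle cells, and the chaperone gene Hspa5 at 919 CPM in AngII cells against 1973 CPM in Vehicle cells. Sdf2l1 stood at 156 CPM in AngII_VWR cells against 46.3 CPM in AngII cells, and Manf, a secreted stress protein gene, at 568 CPM in AngII_VWR cells against 254 CPM in AngII cells. Other fibroblasts had 19 of 19 lower in AngII and 18 of 18 higher in AngII_VWR, so the pattern was not confined to the class.

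Cytokine genes followed the inflammatory lists in part. Cxcl9, a T cell chemokine gene, stood at 70.9 CPM in AngII cells against 0.626 CPM in Vehicle cells and at 1.07 CPM in AngII_VWR, and Il6 at 1049 CPM in AngII cells against 435 CPM in Vehicle cells. Of 20 measured, 13 were higher in AngII than in Vehicle, 9 by 1.5-fold, against 8.37% of all measured genes. In AngII_VWR 13 of 21 were lower than in AngII, 9 by 1.5-fold, against 7.89% of all measured genes. Ccl2 and Ccl11 were highest in Vehicle, at 312, 611 and 922 and 148, 269.9 and 597 CPM in AngII_VWR, AngII and Vehicle. Immediate-early genes, which tissue digestion can induce, were higher in the class than in other fibroblasts in all 3 libraries for 13 of 26, 1 of them by 1.5-fold. Of all 9926 measured genes 1254 were higher in all 3, and 1.04% by 1.5-fold. Between libraries, 11 of the 26 immediate-early genes were higher and 15 lower in AngII against Vehicle, and 18 were lower in AngII_VWR against AngII. Macrophage genes were higher in AngII_VWR than in AngII in 9 of 9, as in other fibroblasts, and the part of either list in the differences was not tested.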

How the data were processed

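Droplet 3′ single-cell RNA sequencing libraries of mouse aortic adventitia were used, 1 each for AngII_VWR, AngII and Vehicle, grouped by the labels. The authors deposited raw UMI counts per gene and barcode (32285 genes), written by Cell Ranger 7.1.0 for AngII_VWR and 7.0.1 for the other two, per the file headers; the build was mm10, per the submitters' processing notes. Whether intronic reads were counted is not given in the sources used here.

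Barcodes, fibroblasts and the class were selected by the rule in the opening; macrophage-like barcodes held at least 3 macrophage marker genes. Counts were summed per population and library and scaled to CPM. Log2 ratios and fold thresholds used CPM + 1. Printed fold ratios and their intervals used CPM without the added 1. Intervals were exact (Poisson, conditional binomial, Clopper-Pearson). Named genes outside the rule had at least 50 CPM in the higher population and were the 20 highest and 12 lowest by their smallest log2 ratio over the 3 libraries, or, between libraries, had at least 100 CPM and 50 UMIs in the higher one, and there at least 0.5 times the CPM of the other barcodes, and were the 10 highest and 10 lowest. Gene lists used genes with at least 5 CPM and 10 UMIs; up to 4 members of a list are named, and pathway enzymes and receptors at any level. The members, lists and tests were chosen with earlier results of these data known. Of the gene rows, 40 repeat the symbol of another row. Doublets were kept in the values above. Scrublet in scanpy 1.11.5, at a rate that grows with the number of barcodes, marked 15.2, 7.92 and 11.1% of the barcodes of AngII_VWR, AngII and Vehicle, and 13.9, 7.94 and 14.4% of the class, and their removal was an alternative; its own threshold called 0 barcodes in AngII_VWR. Further tools were Python 3.11.15, numpy 2.4.6, scipy 1.17.1 and pandas 2.3.3. The log2 ratios and ratio intervals were tested on simulated Poisson counts with planted changes. The choice of cells, the thinning, the lists and the promoter search were not tested this way. With 1 library per group the spread between mice is unknown.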

Additional observations from a re-analysis of the deposited data

Results flagged for a closer look

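Itih5, the heavy-chain gene of the inter-alpha-inhibitor family described with the hyaluronan genes, was the one gene that was at least 1.5-fold different in opposite directions in the class and in other fibroblasts between AngII and Vehicle. In the class it stood at 119.9 CPM in AngII against 71.3 CPM in Vehicle, a ratio of 1.68 (1.57 to 1.81). In other fibroblasts it stood at 68.9 CPM in AngII against 131 CPM in Vehicle, 1.90-fold lower in AngII. Without Dpp4-rich cells the other fibroblasts stood at 44.6 CPM in AngII against 51.6 CPM in Vehicle, 1.16-fold lower in AngII. The difference between the populations was not tested, since each group was 1 library. Between AngII_VWR and AngII 0 genes met the same description.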

How the results depend on the processing

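The share of the class among fibroblasts moved with the rule, and stayed lowest in AngII_VWR under each alternative. In AngII_VWR, AngII and Vehicle it was 17.2, 38.4 and 33.9% with 2 markers asked for, 1.30, 6.91 and 5.55% with 4, 5.55, 21.4 and 22.1% without the Dpp4 exclusion, 7.69, 20.3 and 17.7% from 5000 UMIs, 3.01, 16.1 and 7.91% at a fibroblast gate of 3% of UMIs, and 0.913, 4.54 and 3.61% thinned to 2000 UMIs. Without Chl1 carriers, an alternative chosen after seeing the data, it was 4.34% in AngII_VWR and 15.7% in AngII. Genes at least 2-fold different between AngII and Vehicle numbered 58 lower at the 3% gate and 140 higher with a lower expression filter. Between AngII_VWR and AngII they numbered 77 higher at the 3% gate, and 68 higher and 114 lower with the lower filter. Against other fibroblasts in all 3 libraries, the counts were 6 higher and 0 lower with 2 markers, 25 and 10 with 4, 12 lower without the Dpp4 exclusion, 1 lower from 5000 UMIs, 17 higher with every cell weighed the same, 1 lower with a pseudocount of 10 CPM, 17 and 8 with the lower filter, and 17 and 8 when Dpp4-rich cells were left out of the other fibroblasts, an alternative chosen after seeing the data. The cause of these moves was not tested. The other 60 recomputed shares and counts stayed near their values. Of 856 recomputations of 72 named ratios, each of 1 gene in 1 comparison, 852 kept their sign. No paired analysis was possible because each group was 1 library, and no library could be left out for the same reason. Intervals cover counting error, and gene lists left out genes under 5 CPM in both populations compared.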

Other observations

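Several genes at lower levels, chosen after their values were seen, were higher in the class than in other fibroblasts in all 3 libraries. Fgf10, a growth factor gene of fat precursors and lung mesenchyme, stood at 10.9, 36.7 and 10.3 CPM in the cells of AngII_VWR, AngII and Vehicle, against 2.50, 4.22 and 1.57 CPM in other fibroblasts. Dkk2, a Wnt modulator gene, stood at 44.1, 80.4 and 22.9 CPM in the cells against 13.2, 21.7 and 2.50 CPM in other fibroblasts. Cxcl13, a B cell chemokine gene, stood at 27.0, 21.6 and 37.0 CPM in the cells against 3.97, 1.57 and 2.72 CPM in other fibroblasts. Agt, the gene of angiotensinogen, the precursor of angiotensin, stood at 5.53, 2.68 and 9.14 CPM in the cells against 1.12, 0.522 and 1.24 CPM in other fibroblasts. These levels are low, down to 2.68 CPM for Agt, and none of the genes was tested.

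Aldh1a2, which makes retinoic acid, stood at 22.8, 6.52 and 0.814 CPM in the cells of AngII_VWR, AngII and Vehicle, against 2.62, 0.626 and 0.204 CPM in other fibroblasts, and Wt1, a transcription factor gene also found in mesothelium, at 8.93, 7.74 and 1.06 CPM in the cells against 0.873, 3.61 and 0.116 CPM in other fibroblasts. Within the class both were highest in AngII_VWR, and their levels in Vehicle rest on few UMIs, while Msln, Upk1b and Krt8 of mesothelium were at 0 in the class in each library. Adamts4, a protease gene for versican and aggrecan, stood at 24.6, 128 and 31.9 CPM in the cells against 7.59, 50.3 and 6.23 CPM in other fibroblasts. Lower in the class in all 3 libraries were Vipr2, a receptor gene for vasoactive intestinal peptide, at 18.9, 65.2 and 19.4 CPM in the cells against 62.7, 94.5 and 38.4 CPM in other fibroblasts, and Angptl7, at 5.00, 8.52 and 10.8 CPM in the cells against 35.7, 37.2 and 47.8 CPM in other fibroblasts.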
